A study of Mus musculus with 6 samples.

Results

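The type I interferon response genes examined here are 48 genes named by symbol and matched to Ensembl identifiers through GENCODE M21, out of 54838 genes counted. All 48 were found, and 44 of them were abundant enough to be among the 11924 genes tested. The genes were measured by RNA sequencing of neutrophils sorted by flow cytometry from the corneas of mice infected for 24 h with PAO1, a widely used strain of Pseudomonas aeruginosa. There were 3 libraries labelled WT and 3 labelled IL1a -/-, which lack the gene of the cytokine IL-1 alpha and are called knockout below. Every library came from an infected eye, so an uninfected level was not analysed here. The labels number biological replicates 1 to 3 in each genotype and name no animal or pool, so that p-values measure only the spread between these libraries, which may be technical. The sources used here do not give the mice's strain, age or sex.

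Type I interferons are secreted cytokines that bind a receptor made of Ifnar1 and Ifnar2. The receptor's kinases signal to a complex containing Stat2 and Irf9, which binds the interferon-stimulated response element in promoters and switches on a large set of genes. These genes encode sensors of foreign RNA and DNA, enzymes that block viral replication, chemokines, and regulators that strengthen or end the response. Neutrophils carry the receptor and can switch on this set, also during bacterial infection.

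The libraries held 22855676 to 33626008 gene counts. Il1a lay at 5116 to 8776 CPM (counts scaled to a common library size, adjusted by TMM) in WT and at 2.89 to 5.37 CPM in the knockout, so each library carried the Il1a level of its label. All 12 neutrophil markers were tested and their sum was 43290 to 50330 CPM. Among other cell types, 7 of 11 T and NK cell markers had 0 counts in every library, Cd3e and Nkg7 among them, as did 2 of 10 plasmacytoid dendritic cell markers and 2 of 6 B cell markers. Of the latter lists, Tcf4 was at 6.51 to 12.6 CPM and Ighm at 5.85 to 11.1 CPM.

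None of the interferon response genes passed the genotype test, but they varied together between libraries of the same genotype. WT replicate 2 had the highest WT level for 42 of 44 tested genes (95.5%), against 30.5% of all tested genes. In the knockout, replicate 3 was highest for 31 of 44 (70.5%, against 31.2% of all genes) and replicate 2 was lowest for 33 (75%, against 35.2%). The median gene lay 0.59 above its WT mean on the log2 scale in WT replicate 2, and -0.29 and -0.34 from it in replicates 1 and 3. The same medians were 0.0042 for knockout replicate 1, -0.28 for replicate 2 and 0.23 for replicate 3. In bulk samples, more responding cells and more RNA per responding cell cannot be told apart.

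**Figure D1:**
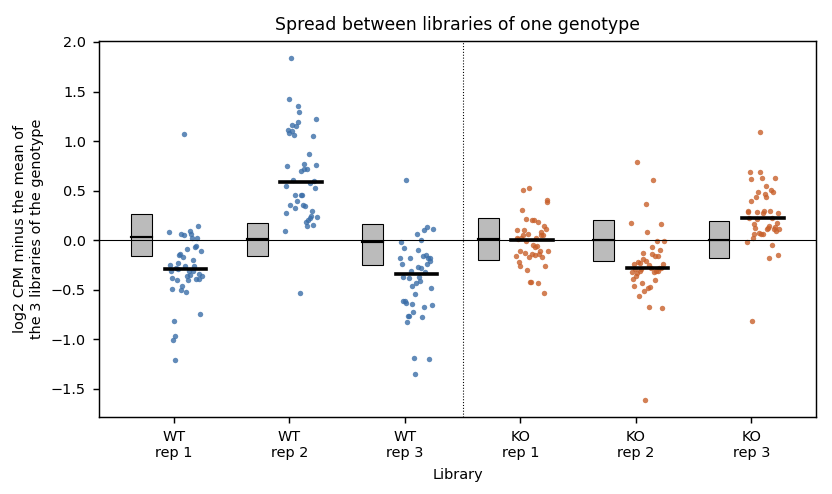
Each point is 1 of 44 tested interferon response genes in 1 library (x axis), as log2 CPM minus the mean of the 3 libraries of its genotype (y axis). Black bars are medians, and grey boxes give the quartiles and median of all 11924 tested genes. The points of WT replicate 2 lie almost all above 0 and those of WT replicates 1 and 3 mostly below, while the knockout libraries spread less.

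Promoters of 8 members are shown to let the response element be seen beside the levels that follow. The RefSeq promoter table (GRCm38.p6) had an entry for 38 of 48 members, and each was searched in a window of 300 bases for the core of the element, GAAANNGAAA or its reverse TTTCNNTTTC, with overlapping matches counted and, where a gene had several start sites, any of them taken. The core was found in 21 of 38 members (55.3%), against 3.99% of 27025 genes in the table. A match is a description of the letters in this window, not a measured binding site.

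The sequences run 5′ to 3′ along the gene from 250 bases before the RefSeq start site to 20 bases after it, and capitals mark the core. Isg15 (chr4:156200799-156201068, minus strand) held 3 overlapping matches. Rsad2 (chr12:26456433-26456702, minus strand) held 1 at position -120 from the start site and Oas3 (chr5:120777640-120777909, minus strand) held 1 at -75. Trim30a (chr7:104446106-104446375, minus strand) and Ddx58 (chr4:40239806-40240075, minus strand) each held 1 just inside the transcribed part. Ifit1 (chr19:34640639-34640908, plus strand) held 2. It was added after the values were seen, for its ratio of WT replicate 2 to the mean of the other WT libraries. That ratio was the largest among tested members with the core. Slfn4 (chr11:83174936-83175205, plus strand) and Slfn1 (chr11:83116570-83116839, plus strand) are the most abundant members with no match in the window.
Isg15: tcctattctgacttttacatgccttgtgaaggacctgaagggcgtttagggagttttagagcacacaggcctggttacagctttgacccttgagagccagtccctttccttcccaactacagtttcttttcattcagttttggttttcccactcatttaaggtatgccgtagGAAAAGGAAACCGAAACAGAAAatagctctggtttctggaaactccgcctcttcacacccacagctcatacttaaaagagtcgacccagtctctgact
Rsad2: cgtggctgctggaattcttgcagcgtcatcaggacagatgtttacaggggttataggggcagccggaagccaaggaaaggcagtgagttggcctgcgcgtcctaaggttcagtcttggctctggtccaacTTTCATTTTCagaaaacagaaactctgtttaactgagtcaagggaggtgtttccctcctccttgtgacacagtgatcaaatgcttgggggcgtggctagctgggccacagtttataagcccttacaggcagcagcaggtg
Oas3: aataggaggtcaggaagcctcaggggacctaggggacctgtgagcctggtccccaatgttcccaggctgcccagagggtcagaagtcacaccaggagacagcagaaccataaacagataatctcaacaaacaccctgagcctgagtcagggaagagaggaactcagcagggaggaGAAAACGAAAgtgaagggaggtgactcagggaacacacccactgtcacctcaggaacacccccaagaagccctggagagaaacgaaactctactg
Trim30a: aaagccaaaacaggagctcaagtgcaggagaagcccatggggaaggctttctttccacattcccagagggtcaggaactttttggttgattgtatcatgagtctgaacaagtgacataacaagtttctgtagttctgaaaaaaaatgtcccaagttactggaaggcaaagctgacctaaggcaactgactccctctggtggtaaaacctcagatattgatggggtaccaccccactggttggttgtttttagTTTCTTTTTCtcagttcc
Ddx58: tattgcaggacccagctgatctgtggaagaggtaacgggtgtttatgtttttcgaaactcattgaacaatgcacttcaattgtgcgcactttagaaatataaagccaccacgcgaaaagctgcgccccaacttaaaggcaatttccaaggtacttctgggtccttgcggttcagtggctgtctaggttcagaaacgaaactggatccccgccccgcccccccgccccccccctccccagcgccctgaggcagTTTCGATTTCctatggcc
Ifit1: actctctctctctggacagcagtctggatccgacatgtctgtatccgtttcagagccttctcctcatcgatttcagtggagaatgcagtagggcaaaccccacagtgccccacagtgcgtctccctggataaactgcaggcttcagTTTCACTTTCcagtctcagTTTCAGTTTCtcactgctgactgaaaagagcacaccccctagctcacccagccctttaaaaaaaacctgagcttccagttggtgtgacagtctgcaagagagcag
Slfn4: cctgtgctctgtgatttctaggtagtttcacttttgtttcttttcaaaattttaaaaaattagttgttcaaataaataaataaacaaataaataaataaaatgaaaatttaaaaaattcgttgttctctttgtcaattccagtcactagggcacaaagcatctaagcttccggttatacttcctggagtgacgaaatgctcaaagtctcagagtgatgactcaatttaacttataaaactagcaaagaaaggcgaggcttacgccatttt
Slfn1: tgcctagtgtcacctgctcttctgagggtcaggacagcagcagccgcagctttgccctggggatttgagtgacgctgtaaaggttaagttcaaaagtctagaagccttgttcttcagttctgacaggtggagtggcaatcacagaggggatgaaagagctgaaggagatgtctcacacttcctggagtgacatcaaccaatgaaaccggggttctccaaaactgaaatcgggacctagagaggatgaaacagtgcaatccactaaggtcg

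Genes with and without the core overlapped in how far the WT libraries differed. The level in WT replicate 2 divided by the mean of WT replicates 1 and 3 had a median of 2.02 (range 1.10 to 4.42) in 20 tested genes with the core and 1.83 (range 1.15 to 7.21) in 14 without it. Ifit1, with 2 matches, had a ratio of 4.42, and its promoter was shown because that ratio is the largest with the core. Trim30a and Stat2, which also hold the core, had ratios of 1.36 and 1.10. Ifit2 had the largest ratio, 7.21, with no match in the window.

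Levels per kilobase of exon length, averaged over the 6 libraries, spanned from abundant to barely detected genes. Slfn4, a Schlafen gene of myeloid cells, led at 723 CPM per kb. Isg15, which encodes a ubiquitin-like protein, followed at 166 CPM per kb and Slfn1 at 145 CPM per kb. Isg20, an exonuclease gene, stood at 79.8 and Ifi27l2a at 69.3 CPM per kb. The antiviral GTPase gene Mx1, at 0.098 CPM per kb, was among the lowest, and so was Mx2 at 0.15 CPM per kb. The summed level of all 48 genes was 3630, 5503 and 4232 CPM in WT replicates 1 to 3 and 4929, 4504 and 6230 CPM in the knockout, much of it Slfn4. Without Slfn4 the sums were 1643, 2645 and 1571 CPM in WT and 2025, 1635 and 2317 CPM in the knockout. WT replicate 2 was then above all 3 knockout libraries, and WT replicates 1 and 3 stood near knockout replicate 2.

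The transcription factor genes differed modestly between libraries. Irf7, which drives interferon production and is itself induced, was at 67.6, 122.9 and 70.9 CPM in WT replicates 1 to 3 and at 97.1, 69.3 and 110.8 CPM in the knockout. Irf9, the DNA-binding partner of Stat2, was at 60.1, 86.6 and 70.6 CPM in WT and 76.2, 60.3 and 92.4 CPM in the knockout. For both, WT replicate 2 and knockout replicate 3 were high in their genotype and the groups overlapped. Stat2, the partner of Irf9, had a ratio of 1.10 between WT replicate 2 and the mean of the other WT libraries. Unlike most members, Stat2 had its highest knockout level in replicate 2, at 63.4 CPM. After centring each genotype, its correlation with the mean of the other tested members was 0.23.

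The genes of the ISG15 system all had their highest WT level in replicate 2. Isg15 was at 89.7, 196.9 and 90.8 CPM in WT and 125.6, 105.5 and 146.0 CPM in the knockout. Usp18, whose product removes ISG15 from proteins and dampens receptor signalling, was at 7.64, 23.4 and 7.04 CPM in WT and 7.17, 6.07 and 13.5 CPM in the knockout. For Isg15 the 3 knockout libraries lay inside the WT range, between replicate 2 and the other 2 WT libraries. Herc6, the ligase gene of the system in mice, had a ratio of 2.99. The Isg15 value is uncertain because its transcript matches that of AC151275.1 at 95.2% identity. The unstranded count of Usp18 leaves out reads in an overlapping gene model, since the sum of its strand columns was 1.22 times that count. Which gene those reads came from is not known. The same sum was 1.219 times the unstranded count for Slfn5, 1.127 times for Cxcl10 and 1.105 times for Parp9.

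The IFIT genes, whose products bind foreign RNA and which lie side by side on chromosome 19 (GRCm38), included the widest range between WT libraries on the log2 scale, that of Ifit2. Ifit1 (19, 34640871 to 34650009) was at 16.2, 77.2 and 18.6 CPM in WT and 25.5, 23.7 and 46.7 CPM in the knockout. Ifit2 was at 0.786, 7.24 and 1.22 CPM in WT and 3.36, 2.13 and 2.75 CPM in the knockout. Ifit3 was at 6.85, 18.1 and 4.66 CPM in WT and 11.6, 9.65 and 12.6 CPM in the knockout. For these 3 genes every knockout library lay between WT replicate 2 and the other WT libraries. Ifit3 and Ifit3b share 97.8% of their transcript sequence, so their separate values are uncertain. Ifit1bl1, at 0.765 CPM in WT on average, departed from the family in being highest in WT replicate 3.

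The 6 OAS genes, whose enzymes make the signal that activates RNase L or are relatives of those enzymes, were all highest among WT libraries in replicate 2. Oasl2 was at 153.0, 192.8 and 106.7 CPM in WT and 161.4, 141.6 and 162.5 CPM in the knockout. Oas3 was at 68.9, 104.1 and 61.0 CPM in WT and 88.5, 56.7 and 89.0 CPM in the knockout. Their groups overlapped, and WT replicate 2 was the highest of the 6 libraries for both. Ratios in the family ran from 1.40 to 3.33, the latter for Oasl1. Oas1a and Oas1g share 97.6% of their transcript sequence and are uncertain for that reason.

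Among other antiviral effectors, Rsad2, which encodes viperin, was at 64.1, 202.1 and 53.3 CPM in WT and 79.2, 62.2 and 143.1 CPM in the knockout. Cmpk2, a nucleotide kinase gene next to Rsad2 on chromosome 12, was at 7.79, 22.6 and 3.79 CPM in WT and 7.95, 1.73 and 11.8 CPM in the knockout. These neighbours followed the same order in the knockout, with replicate 2 lowest and replicate 3 highest. Isg20 was at 114.1, 201.0 and 137.3 CPM in WT and 139.6, 121.3 and 177.5 CPM in the knockout, again with WT replicate 2 on top. Mx1 was barely detected, with 0.337, 0.934 and 0.0643 CPM in WT and 0.189, 0.401 and 0.306 CPM in the knockout. Mx2, also under 1 CPM in every library, was the other exception to the order of WT libraries, with its highest WT level in replicate 1.

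**Figure D2:**
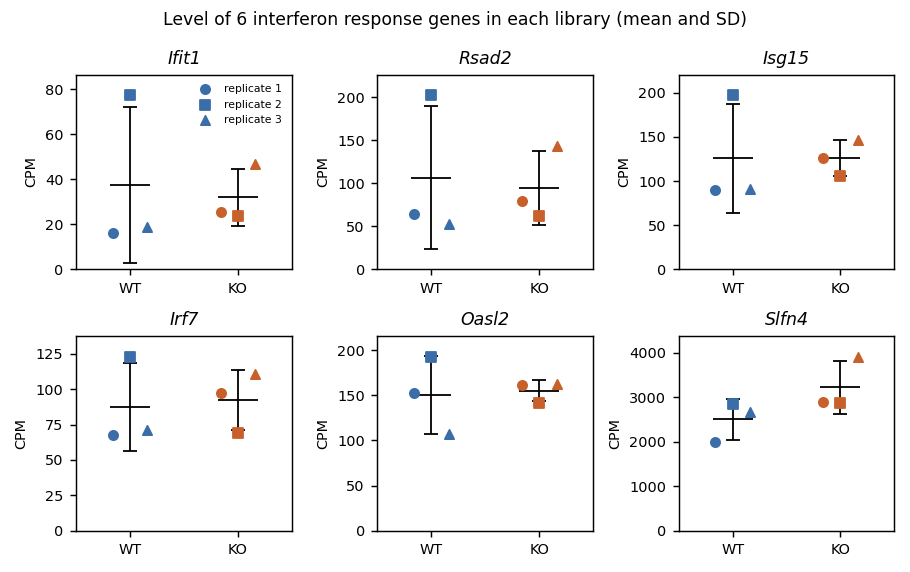
Levels in CPM (y axes, from 0) of 6 interferon response genes in the 3 WT (blue) and 3 knockout (KO, orange) libraries, with marker shape for the replicate number and bars for mean and SD. For Ifit1, Rsad2 and Isg15, WT replicate 2 stands above the other 5 libraries, whereas for Slfn4 all knockout libraries lie above all WT libraries.

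The cytosolic RNA receptor genes shared the order of the effectors. Ddx58, which encodes RIG-I, was at 44.1, 60.04 and 38.9 CPM in WT and 49.9, 27.1 and 60.05 CPM in the knockout. Ifih1, which encodes MDA5, was at 11.5, 26.01 and 11.7 CPM in WT and 14.7, 11.01 and 22.4 CPM in the knockout. Both were low in knockout replicate 2 and high in WT replicate 2 and knockout replicate 3. Dhx58, the gene of their relative LGP2, had a ratio of 2.15, and its unstranded count also leaves out reads in an overlapping gene model. Of the PYHIN genes, a family that includes DNA sensors, Ifi204 was at 57.1, 92.1 and 72.8 CPM in WT and 71.5, 63.8 and 76.0 CPM in the knockout. All 3 knockout values of Ifi204 fell inside the WT range, and close copies such as Ifi211 make the value uncertain.

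The Schlafen genes, a family linked to growth arrest of immune cells, had ratios from 1.15 for Slfn1 to 2.44 for Slfn5. Slfn1 was at 269.7, 291.8 and 236.7 CPM in WT and 307.7, 216.7 and 300.2 CPM in the knockout. Its knockout libraries lay on both sides of the WT range and none inside it. Among PARP and TRIM genes, Trim30a, a regulator of inflammatory signalling, was at 140.0, 179.2 and 123.3 CPM in WT and 159.3, 137.3 and 166.3 CPM in the knockout. Parp14, a gene of an ADP-ribosyltransferase, was at 45.5, 70.7 and 65.4 CPM in WT and 51.4, 46.7 and 81.3 CPM in the knockout. In both the groups overlapped, with ratios of 1.36 and 1.27.

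Cxcl10, the chemokine gene of the list, was at 12.9, 24.3 and 5.05 CPM in WT and 10.9, 14.7 and 24.5 CPM in the knockout. Its product attracts cells bearing the receptor Cxcr3, and its WT range was among the wide ones. Rtp4, a chaperone-like gene, was at 72.3, 132.0 and 80.7 CPM in WT and 110.7, 84.2 and 115.7 CPM in the knockout. Ifi27l2a was at 23.5, 42.9 and 16.1 CPM in WT and 47.1, 30.4 and 32.4 CPM in the knockout. For Rtp4 all knockout libraries lay inside the WT range, while for Ifi27l2a knockout replicate 1 exceeded it.

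The 4 members outside the test were too low to compare. Ifi44 had 0 counts in all 3 WT libraries and 1, 8 and 6 in the knockout. Phf11b had 0, 11 and 0 counts in WT and 6, 15 and 2 in the knockout, and Phf11d had 0, 11 and 2 against 0, 15 and 6. Ms4a4c had 1, 10 and 9 counts in WT and 9, 91 and 16 in the knockout, so knockout replicate 2 held most of them. In the single libraries 3 counts correspond to 0.0925 to 0.131 CPM, which is the limit that a count of 0 allows, for counting error only.

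The spread between libraries was wider in WT than in the knockout for most members. The median SD of log2 CPM over the tested members was 0.57 in WT and 0.35 in the knockout, against 0.29 and 0.31 over all tested genes. The SD was larger in WT for 36 of 44 members (81.8%), against 48.1% of all tested genes. The contrast of WT replicate 2 with the other WT libraries held 84.7% of the members' sum of squares within WT, against 46.0% over all genes. In the knockout, the contrast of replicate 2 with the others held 70.0% (all genes 62.4%) and that of replicate 3 held 58.4% (all genes 40.2%). The contrasts of a genotype use the same libraries, so their shares overlap and are not parts of a whole. These shares describe 3 libraries a genotype and were not tested. The median ratio of WT replicate 2 to the mean of the other WT libraries was 1.86, with quartiles of 1.35 and 3.02, and it exceeded 2 for 20 of 44 members (45.5%, against 5.52% of all genes).

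**Figure D3:**
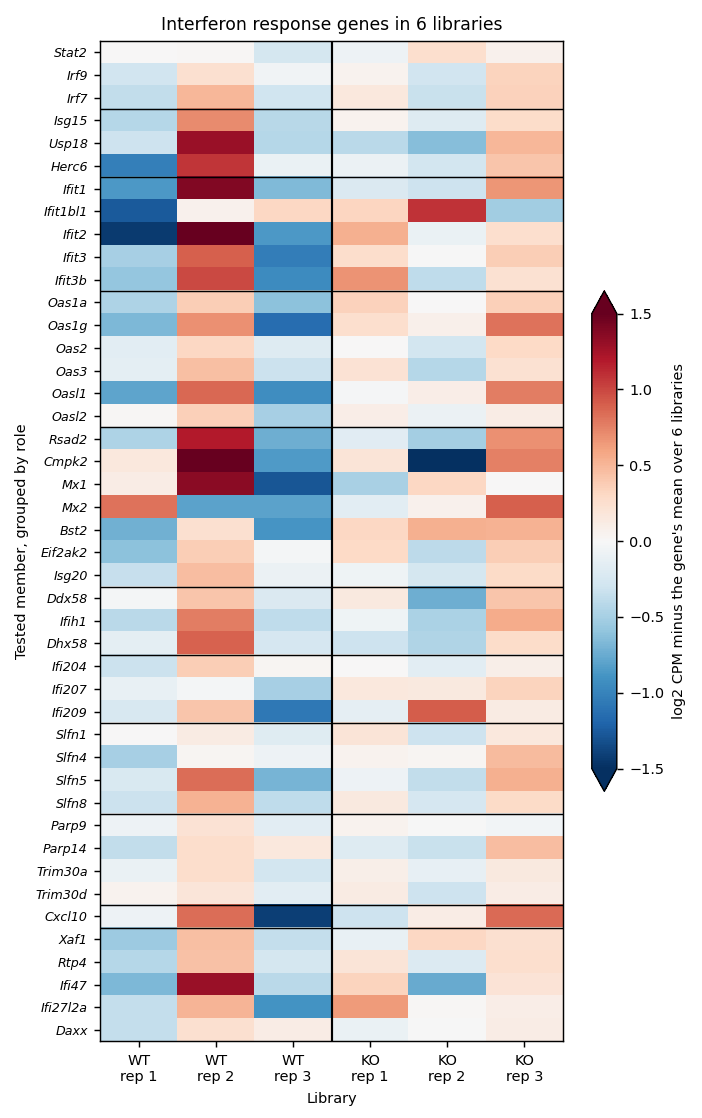
Log2 CPM of the 44 tested genes in each library minus the gene's mean over 6 libraries (colour scale, red above and blue below the mean), with genes grouped by role along the y axis and libraries along the x axis. The column of WT replicate 2 is mostly red, those of WT replicates 1 and 3 mostly blue, and Mx2 is among the genes below their mean in WT replicate 2.

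WT replicate 2 was the highest WT library for most tested members of every role, while the knockout order varied more, with replicate 3 highest for 6 of 6 OAS genes but 2 of 5 IFIT genes and 2 of 4 PARP and TRIM genes. WT replicate 2 was highest for all 36 tested members that averaged 5 CPM or more. It was above WT replicate 3 for 43 of 44 members (53.2% of all tested genes) when replicate 1 was left out. With replicate 3 left out it was above replicate 1 for 43 of 44 (48.2% of all tested genes). This comparison was added after the values were seen. Knockout replicate 3 was above replicate 2 for 37 members (50.7% of all tested genes) and above replicate 1 for 36 (49.3%). A library that is highest of 3 stays highest when another is left out. These counts could therefore not fall below 42 in WT and 31 in the knockout, and add little to the order. Correlated over the 6 libraries after centring each genotype, a member followed the mean of the other members with a median r of 0.87, and r exceeded 0.8 for 29 of 44. Isg15 followed it most closely, at 0.99, and Mx2 least, at -0.20. These correlations share libraries and scaling and are descriptions.

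Marker genes of other cells also differed between these libraries. The summed level of the 8 corneal epithelial markers was 52.5, 167.5 and 90.2 CPM in WT and 51.0, 130.7 and 54.5 CPM in the knockout, and WT replicate 2 was highest for 6 of 7 tested markers. In the knockout, replicate 2 was highest for 7 of 7 epithelial markers while it was lowest for 33 of 44 interferon response genes. Krt14, a basal keratin gene, led the list with 85.6 CPM in WT replicate 2 and 64.0 CPM in knockout replicate 2. Of 15 tested monocyte and macrophage markers, 7 were highest among WT libraries in replicate 2 and 6 among knockout libraries in replicate 2. Between the genotypes 12 of 15 had a log2 fold change above 0, against 50.7% of all tested genes, and 0 were called. The complement gene C1qb, with the smallest p of the list, was at 0.973, 1.26 and 0.74 CPM in WT and 2.11, 8.29 and 4.02 CPM in the knockout. Cd14, the most abundant, went the other way, with a log2 fold change of -0.18, and Ly6c2 was below WT in every knockout library. Among neutrophil markers, 5 of 12 were highest in WT replicate 2 and 0 of 12 in knockout replicate 2. Knockout replicate 2 was lowest for 9 of 12 (75%), the same share as for the interferon response genes. Its median deviation was smaller, at -0.092 against -0.28. WT replicate 3 was also lowest for 9 of 12 neutrophil markers (75%), against 61.4% of the interferon response genes. The part of these cells in the variation of the interferon response genes was not tested.

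Between the genotypes, 0 of 44 tested members passed an adjusted p of 0.05 in edgeR's quasi-likelihood test, where 0.101% of all tested genes did. A count of 0 is near that share. DESeq2 and limma-voom also called 0 members, and their shares of all genes called are not given here. The smallest adjusted p was 0.79. At an unadjusted p under 0.05 there were 3 members (6.82%), against 5.99% of all tested genes. The median log2 fold change, knockout against WT, was 0.04 over the members and 0.0046 over all tested genes, and 25 of 44 were above 0. Single members ranged from -0.68 for Cmpk2 to 0.85 for Bst2. For 25 of 44 members the 95% interval excluded changes over 2-fold both ways, and for the other 19 it did not.

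The knockout libraries were all above the WT libraries for 3 of 44 members, or 6.82%, where 6.12% of all tested genes had this pattern. They were all below for 0 members, against 5.48% of all tested genes. The 3 members are those with the smallest p. Ifi207, a PYHIN gene, was at 17.8, 18.9 and 13.7 CPM in WT and 21.5, 21.4 and 24.5 CPM in the knockout. Its log2 fold change was 0.42 (SE 0.17, edgeR adjusted p = 0.79). Ifi207 matches 66.2% of the Ifi204 transcript at 91.9% identity, which makes the Ifi207 value uncertain as well. Bst2, which encodes the virus-retaining protein tetherin, was at 1.53, 3.09 and 1.35 CPM in WT and 3.24, 3.79 and 3.76 CPM in the knockout. Here the log2 fold change was 0.85 (SE 0.37, edgeR adjusted p = 0.82). Slfn4 was at 1987, 2857 and 2661 CPM in WT and 2905, 2869 and 3913 CPM in the knockout, for a fold change on the log2 scale of 0.37 (SE 0.17, edgeR adjusted p = 0.83). The groups met almost edge to edge for Slfn4 and Bst2, where WT replicate 2 came close to the lowest knockout library.

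**Figure D4:**
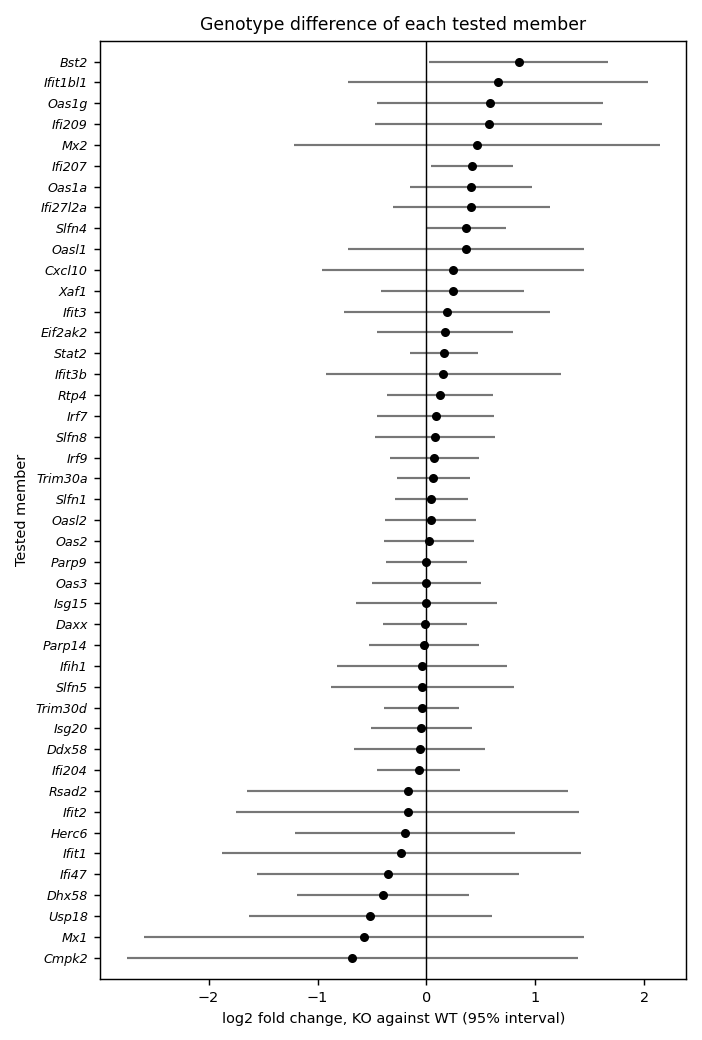
Log2 fold change of knockout (KO) against WT for each of the 44 tested members (points) with its 95% interval (lines), ordered by size. The intervals of Bst2, Ifi207 and Slfn4 lie just above 0 before adjustment for multiple tests, and those of Cmpk2, Mx1, Ifit1 and Ifit2 are among the widest.

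Members with a wide spread in WT had wide intervals between the genotypes. Isg15 had a log2 fold change of -0.0020 with a 95% interval from -0.65 to 0.65, and Oasl2 one of 0.04 with an interval from -0.38 to 0.46. For Ifit1 the value was -0.23 with an interval from -1.88 to 1.42, for Rsad2 -0.17 with an interval from -1.64 to 1.30, and for Mx1 -0.57 with an interval from -2.59 to 1.45. All 3 knockout libraries lay inside the WT range for 21 of 44 members (47.7%), against 18.4% of all tested genes. For 11 members (25%, against 1.18% of all genes) they lay between WT replicate 2 and both other WT libraries, a pattern chosen after the values were seen. The wide spread in WT raises both counts by construction.

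The values of the list moved when WT replicate 2 was left out. Because this library was the highest in WT for 42 of 44 members, its removal raises the knockout-against-WT values by construction, and the share of all tested genes, of which it was highest for 30.5%, is no baseline for the members. Without it, 45 members were tested and 45 of 45 had a log2 fold change above 0, against 50.5% of all tested genes. Their median was 0.46, against 0.0044 over all tested genes. The knockout libraries were then above the 2 remaining WT libraries for 17 members, where 10% of all tested genes had this pattern, and below for 0. At an unadjusted p under 0.05 there were 14 members (31.1%, against 4.33% of all tested genes). None of the members was called, where 7 of 12560 tested genes were. The smallest adjusted p of a member in edgeR's quasi-likelihood test was 0.64. Without WT replicate 3, in contrast, the median was -0.07. No label sets WT replicate 2 apart from the other libraries.

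Other genes of the pathway were taken from 6 lists with 169 further genes, of which 132 were tested and 0 passed the genotype test. Of 20 type I and III interferon ligand genes, 0 reached the test and 17 had 0 counts in every library. Ifnb1, the gene of interferon beta, had 0, 4 and 2 counts in WT and 0, 7 and 0 in the knockout. Interferon transcripts were thus at or near the detection limit in these neutrophils, also in WT replicate 2. The receptor genes Ifnar1, at 268 ± 43.7 CPM in WT and 304.9 ± 6.6 CPM in the knockout (SD, n = 3 each), and Ifnar2, at 151 ± 5.7 and 159 ± 7.1 CPM, were abundant, and were picked for their role in the pathway.

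Among genes upstream of the response, WT replicate 2 was the highest WT library for 2 of 14 receptor and JAK-STAT genes, 7 of 19 tested sensor and adaptor genes and 3 of 13 tested negative regulators, where 30.5% of all tested genes had this order. Jak1, a receptor kinase gene, was at 758, 739.7 and 881 CPM in WT, and Stat3 at 851, 804 and 813 CPM. Irf8, a transcription factor gene, had the smallest p of that list and was low, at 0.304 ± 0.201 CPM in WT and 0.947 ± 0.386 CPM in the knockout. Among sensors and adaptors, the kinase gene Ikbke was at 671 ± 26.5 and 752 ± 31.6 CPM, the bacterial lipopolysaccharide receptor gene Tlr4 at 432 ± 28.6 and 414 ± 18.7 CPM, Ifi205 at 1.71 ± 0.56 and 3.91 ± 1.35 CPM and Traf3 at 47.1 ± 4.6 and 58.8 ± 8.9 CPM. Of the negative regulators, Tnfaip3 was at 4768 ± 716 and 4795 ± 461 CPM, Socs3 at 3748 ± 145 and 3551 ± 460.2 CPM, Rnf125 at 127 ± 8.9 and 93.0 ± 11.2 CPM and Nlrc5 at 31.6 ± 5.5 and 40.8 ± 5.0 CPM in WT and knockout (SD, n = 3 each).

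Further genes known to be induced by interferon came closer to the members. WT replicate 2 was the highest WT library for 44 of 60 tested genes (73.3%) of the list of other interferon-induced genes and for 20 of 26 (76.9%) of the interferon gamma list. Knockout replicate 2 was lowest for 34 of 60 and 19 of 26, but the highest knockout library was replicate 3 for 29 of 60 in the former list and replicate 1 for 15 of 26 in the latter. The abundant chemokine-binding receptor gene Ccrl2, at 4154 ± 180.5 CPM in WT and 4727 ± 292 CPM in the knockout, and Slfn2, at 1979 ± 149 and 1880 ± 284 CPM, led the former list by CPM. Lipa, a lysosomal lipase gene, at 54.1 ± 12.4 and 39.0 ± 1.8 CPM, and Ms4a6c, at 0.28 ± 0.13 and 0.844 ± 0.19 CPM, had its smallest p. Of the interferon gamma list, H2-D1, a class I antigen presentation gene, was at 2530 ± 175 and 2633 ± 299.8 CPM, Cd274, which encodes PD-L1, at 1617 ± 229 and 1549 ± 151 CPM, Nos2, the inducible nitric oxide synthase gene, at 169 ± 36 and 242 ± 10.2 CPM, and Tap1, a peptide transporter gene, at 56.5 ± 4.8 and 69.5 ± 14.7 CPM (SD, n = 3 each). Of the 132 tested genes, 1 was called when no expression filter was used. It was H2-Ab1 of the class II antigen presentation genes, named for that reason after its values were seen. Its log2 fold change without the filter was 0.64 (edgeR adjusted p = 0.035). With the filter it was not called (edgeR adjusted p = 0.90). Its groups overlapped, at 18.5, 21.7 and 40.5 CPM in WT and 24.0, 59.2 and 44.1 CPM in the knockout. The share of all genes called without the filter is not given here. H2-Ab1 is also on the list of dendritic cell markers.

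Outside the lists of members, the genes whose log2 CPM most resembled the mean of the members were sought among 5627 genes averaging 5 CPM or more, over 6 libraries and after centring each genotype. The first 10 were Hsdl1 (r = 0.993), Ddx60 (0.990), S100a8 (0.989), Gm16286 (0.987), Ifitm2 (0.984), Atat1 (0.981), Gm6055 (0.976), B2m (0.9752), Zkscan14 (0.974) and Zfp91 (0.964). Of these, Ddx60, Ifitm2 and B2m were on the lists of interferon-induced genes. Ddx60, a helicase gene, was at 10.6, 24.4 and 10.03 CPM in WT and 12.9, 11.8 and 15.6 CPM in the knockout, so WT replicate 2 stood above all other libraries. The swing was far smaller for S100a8, a neutrophil cytosolic calcium-binding protein gene, at 9889, 11540 and 9520 CPM in WT and 9769, 9113 and 10110 CPM in the knockout. The correlations come from 6 libraries that share their scaling and are descriptions.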

How the data were processed

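RNA was sequenced from sorted corneal neutrophils in 3 WT and 3 IL1a -/- libraries. Per the labels' protocols, RNA was column-purified and SMART-seq v4 low-input libraries, which carry no strand information, were prepared. FastQC 0.11.9, Trimmomatic 0.39, STAR 2.7.8a and builds GRCm38 and mm10 are named in the submitters' processing notes. The annotation release is not given in the sources used here. Raw gene counts, as the authors deposited them, were taken from the unstranded column. That count leaves out reads that fall in overlapping gene models, and reads shared by near-identical genes are a further limit: 10 members had a copy of at least 90% identity across 50% or more of their transcript (blastn 2.17.0) and are uncertain (Ifi204, Ifi209, Ifit3, Ifit3b, Isg15, Ms4a4c, Oas1a, Oas1g, Phf11b and Slfn8).

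Counts of genes kept by edgeR's default filter (11924 genes, 99.9% of counts) were normalized by TMM and fitted with edgeR 4.0.16 (quasi-likelihood, robust, in R 4.3.3 with limma 3.58.1) over all 6 libraries. Benjamini-Hochberg adjustment ran over all tested genes, and genes with an adjusted p under 0.05 were called. The SE is the log2 fold change divided by the square root of F. CPM use TMM-adjusted library sizes, log2 CPM a prior count of 3, and CPM per kb the summed exon length in GENCODE M21. The procedure was tested on simulated data, where genes picked at random from those at 5 CPM or more were changed by a known fold. Of 50 genes at each fold it called 12 at 1.5-fold, 39 at 2-fold, 50 at 4-fold and 49 at 8-fold. Of 11238 unchanged genes it called 9. Changes of 1.5-fold were thus mostly missed. Genes at 5 CPM or more had a median SD of log2 CPM within WT of 0.185. For the tested members at that level it was 0.487. Each gene was also simulated independently, without variation shared between genes. The counts called in the simulation therefore do not carry over to the members, also at 2-fold. An exact two-sided permutation test on 3 against 3 libraries reaches p = 0.1 at the lowest. Figures were drawn with matplotlib 3.10.9. Promoters came from RefSeq (GRCm38.p6).

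The members and lists were chosen with earlier results of these data known, so the lists were described by counts and medians and not tested. Values per library are given for the 2 most abundant members in each of 11 role groups, the 3 with the smallest p and the 3 with the widest range within a genotype. The 2 most abundant genes and the 2 with the smallest p are given for each pathway list. Members given with a ratio or a level only (Stat2, Herc6, Ifit1bl1, Oasl1, Dhx58 and Mx2), and C1qb, Ifnar1, Ifnar2 and Ifnb1, fall outside that rule and were chosen with their values seen. Promoters were those of at most 5 abundant named members with the core and the 2 most abundant without it. Ifit1 was added for its ratio after the values were seen. Alternatives were other scalings and filters, a replicate block, DESeq2 1.42.0, limma-voom, the strand columns and each library left out.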

Additional observations from a re-analysis of the deposited data

How the results depend on the processing

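The count of members called stayed at 0 under all 15 alternatives. In the main fit 0.101% of all tested genes were called, and 0 of 44 members is near that share. Apart from the fit without WT replicate 2, the shares of all genes called under the alternatives are not given here. The leading libraries kept their place, with WT replicate 2 highest for 35 to 45 members and knockout replicate 3 for 25 to 34 under the other scalings, filters and the strand columns. With 1 library left out, the median log2 fold change ran from -0.0662 to 0.463, the highest without WT replicate 2. The number of members whose groups do not overlap was 2 without WT replicate 3 (4.26%, against 22.4% of all tested genes). It was 4 without WT replicate 1 (8.51%, against 23.3%), knockout replicate 1 (8.51%, against 26.6%) or knockout replicate 2 (9.09%, against 20.3%). Without knockout replicate 3 it was 5 (10.6%, against 19.3%). It was highest, at 17, without WT replicate 2 (37.8%, against 18.7%), where the member order in WT makes it high by construction. The cause of other shifts was not tested. With no filter, 1 other pathway gene was called, H2-Ab1, which was not called with the filter. The replicate block gave 0 calls and a median of 0.0878. Same-numbered libraries correlated at 0.14, 0.057 and 0.0034, so the number was not taken to pair them. No log2 fold change of a named member passed the test, and many near 0 changed sign: with library size alone Ifih1 (0.019), Isg15 (0.0556), Isg20 (0.0142), Oas3 (0.0572) and Parp14 (0.0429); with the replicate block Ifih1 (0.0245), Ifit1 (0.121), Ifit2 (0.485), Isg15 (0.0971), Oas3 (0.0147) and Rsad2 (0.0327); in limma-voom Ifit1 (0.0465), Ifit2 (0.441), Isg15 (0.0801), Mx1 (0.017) and Oas3 (0.00111); with upper quartile scaling Isg15 (0.00246) and Oas3 (0.00379); with a filter at 5 CPM in 3 libraries Isg15 (0.0137) and Oas3 (0.014); from the sum of the strand columns Isg15 (0.00383) and Oas3 (0.00516). With 1 library left out, changes of sign gave log2 fold changes of Cmpk2 (-1.24 to 0.304), Cxcl10 (-0.163 to 0.896), Ddx58 (-0.309 to 0.197), Ifi204 (-0.242 to 0.115), Ifih1 (-0.357 to 0.463), Ifit1 (-0.607 to 0.869), Ifit2 (-0.634 to 1.44), Ifit3 (-0.15 to 0.971), Irf7 (-0.0822 to 0.414), Irf9 (-0.0876 to 0.222), Isg15 (-0.207 to 0.476), Isg20 (-0.225 to 0.216), Mx1 (-1.09 to 0.579), Oas3 (-0.151 to 0.263), Oasl2 (-0.158 to 0.256), Parp14 (-0.305 to 0.12), Rsad2 (-0.594 to 0.689), Rtp4 (-0.0515 to 0.436), Slfn1 (-0.0493 to 0.183), Trim30a (-0.0506 to 0.228) and Usp18 (-0.943 to 0.276). Ratios of low genes such as Mx1 and the untested members are limited by depth.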
